A study of Mus musculus with 8 samples.

Results

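Cell cycle and DNA replication genes were followed in primary mouse hepatocytes, the metabolic cells of the liver, with and without transglutaminase 2. The set was a list of 36 genes, each read from the Affymetrix probe set whose platform symbol is that gene alone and whose mean over the arrays is highest. Of these, 35 had such a probe set, among 18194 single gene symbols on the array. The expression of Ccnb1, the main mitotic cyclin, was not analysed here, though its promoter window is among those described. Tests covered the brighter 50% of probe sets, which held 28 of the genes, and the other 7 are marked as dim and were not tested.

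The 4 groups were wild-type (WT) hepatocytes kept for 15 h as an untreated control (0 mM ethanol), WT hepatocytes given 100 mM ethanol for 15 h, and hepatocytes of TG2KO mice (KO), which lack transglutaminase 2, under the same pair of conditions. All mice are labelled C57BL6/129SVJ, and the labels give no age or targeted allele. Each group had 2 arrays, A and B, and nothing says whether they came from separate animals or cultures, so p-values here reflect differences between arrays that may be purely technical. The study concerns transglutaminase 2 and the transcription factor Sp1 in liver injury.

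Before a cell copies its DNA, the Mcm2 to Mcm7 helicase is loaded onto replication origins by Cdc6 and Cdt1, a step called licensing. G1 cyclins with their kinases release E2F transcription factors, which switch on licensing, nucleotide supply and fork genes, while the mitotic genes are switched on later, mainly through CHR elements and the CCAAT boxes bound by NF-Y. Cdkn1a (p21) and Cdkn1b (p27) inhibit the cyclin-dependent kinases. Hepatocytes are mostly quiescent in adult liver, and isolation and plating are known to move them out of G0 toward G1.

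E2F-type letters were frequent in the promoters of licensing genes and CHR letters in those of mitotic genes. RefSeq windows of GRCm38.p6, from 250 bases before to 50 after a start, were at hand for 29 of the 36 genes. The E2F-type letters TTTCCCGC or TTTGGCGC, searched on both strands, occurred in 7 of the 29 (24.1%), against 1.8% of 27025 genes and 1.56% of 32851 windows. Among the licensing genes 6 of 7 with a window held them, namely Mcm3, Mcm5, Mcm6, Mcm7, Cdc6 and Cdt1, and Cdk2 was the seventh gene. None of the 10 S, G2 and mitotic genes with a window did, and neither did any of the 5 such fork and nucleotide supply genes. Only these exact letters were searched, so other E2F-type variants were not counted. The stretches before the start are shown for 4 licensing genes, because they carry these letters, in capitals. They lie at chr8:75109259-75109508 on the plus strand (Mcm5), chr1:128359706-128359955 on the minus strand (Mcm6), chr5:138172015-138172074 on the minus strand (Mcm7) and chr11:98907987-98908046 on the plus strand (Cdc6).
Mcm5: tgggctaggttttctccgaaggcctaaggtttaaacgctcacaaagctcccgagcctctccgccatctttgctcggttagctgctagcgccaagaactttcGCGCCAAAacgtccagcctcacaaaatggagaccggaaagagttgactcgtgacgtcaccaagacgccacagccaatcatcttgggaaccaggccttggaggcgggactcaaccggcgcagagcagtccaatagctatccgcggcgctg
Mcm6: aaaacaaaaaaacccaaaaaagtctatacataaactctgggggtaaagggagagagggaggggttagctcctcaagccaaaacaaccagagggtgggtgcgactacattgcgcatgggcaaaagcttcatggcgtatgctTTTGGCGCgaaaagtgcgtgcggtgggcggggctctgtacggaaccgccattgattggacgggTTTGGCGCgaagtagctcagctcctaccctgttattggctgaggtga
Mcm7: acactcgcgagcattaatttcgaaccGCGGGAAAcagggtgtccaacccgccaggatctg
Cdc6: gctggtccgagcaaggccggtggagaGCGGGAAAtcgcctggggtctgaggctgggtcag

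The first base of the match lay 149 bases before the start in Mcm5, 110 and 47 before it in Mcm6, 165 in Mcm7 and 138 in Cdc6. In Mcm3 and Cdt1 the matches lay after the start, at bases 20 and 39 and at base 33. The CHR letters TTTGAA were found in 6 of the 10 S, G2 and mitotic windows (Ccnb2, Cdk1, Mki67, Top2a, Aurka and Plk1) and in 1 of 7 licensing windows (Mcm2), beside 20.2% of all genes and 17.9% of windows. The variant TTCGAA was in 3 of 29 (Mcm7, Top2a and Bub1), beside 1.8% of genes and 1.56% of windows. CCAAT occurred in 8 of the 10 S, G2 and mitotic windows and in 19 of all 29, beside 41.1% of genes and 37.4% of windows. GGGCGG, the core of the GC box that Sp1 binds, occurred in 24 of 29, beside 38.2% of genes and 35.7% of windows. The Cdk1 stretch, chr10:69352913-69353162 on the minus strand, shows the mitotic arrangement, with CHR and CCAAT letters on either strand in capitals.
Cdk1: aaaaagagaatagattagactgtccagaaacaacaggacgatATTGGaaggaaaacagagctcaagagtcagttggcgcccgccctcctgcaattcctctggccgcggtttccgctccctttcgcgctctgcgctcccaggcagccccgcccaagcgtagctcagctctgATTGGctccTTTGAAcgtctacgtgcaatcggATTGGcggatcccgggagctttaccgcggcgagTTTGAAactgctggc

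These matches describe letters in a window and not sites shown to be bound. No motif searched contains another.

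**Figure D1:**
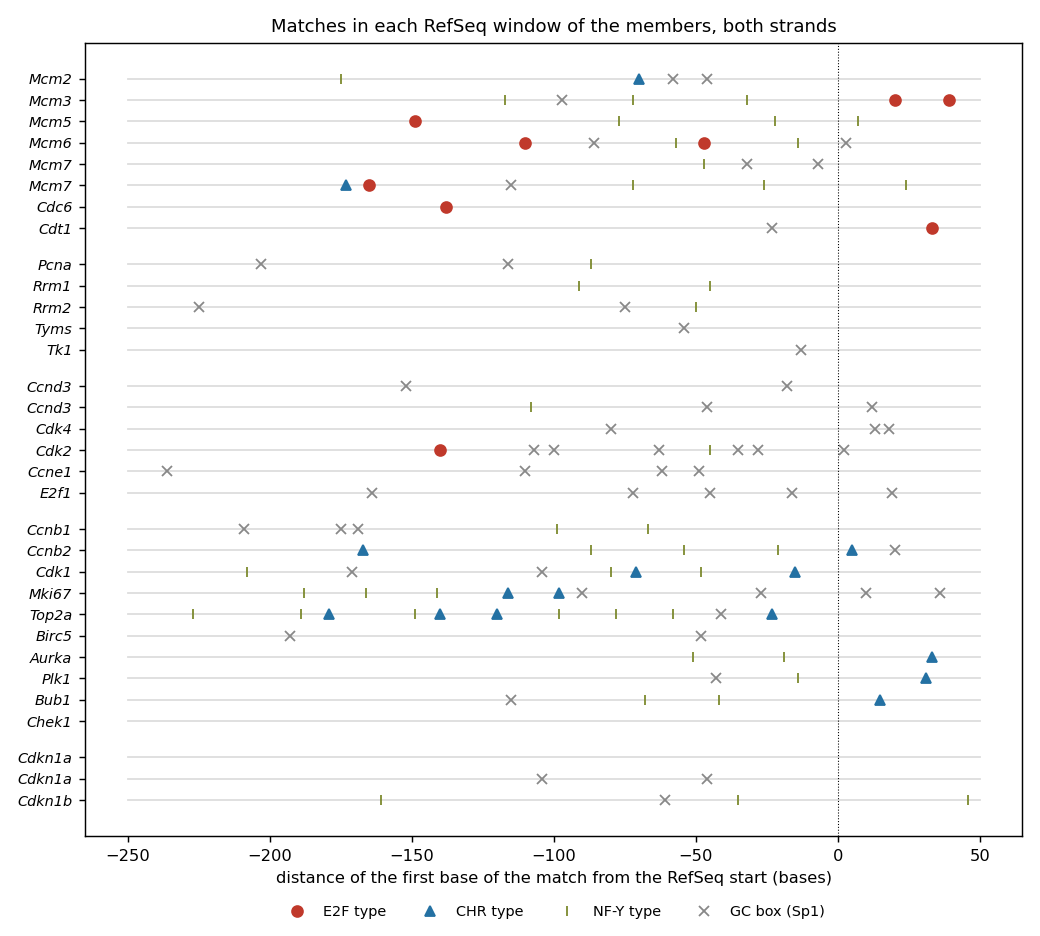
Position of E2F-type, CHR-type, NF-Y-type (CCAAT) and GC box matches, in bases from the RefSeq start, in each window of the 29 genes, with genes that have several windows on several lines. E2F-type matches (circles) sit in 6 of the 7 licensing genes and in Cdk2, and TTTGAA or TTCGAA (triangles) mostly in S, G2 and mitotic genes.

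Levels are quantile-normalised intensities, in arbitrary units, and a log2 difference is the change in log2(intensity + 16), which understates changes of dim genes. Over complete probe sets same-group arrays correlated at 0.971 to 0.983 and arrays of different groups at 0.950 to 0.982, so the ranges overlap. Tgm2, the targeted gene, read 16656 to 16836 on the WT arrays and 368 to 704 on the KO arrays. Both untreated KO arrays and ethanol KO A were dim before normalisation (trimmed means of 113 to 117, against 228 to 341 on the other 5). The ratio of 3′ to 5′ signal of the control transcript Pcx, which rises as RNA degrades, was 10.02 and 16.8 in WT against 10.6 and 8.69 in KO without ethanol. With ethanol it was 26.7 and 44.5 in WT against 4.91 and 5.45 in KO. The part of brightness and of this ratio in the results was not tested. On ethanol WT B and ethanol KO B, title and source name give 100 mM while the treatment text describes a control incubation. The titles were followed.

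**Figure D2:**
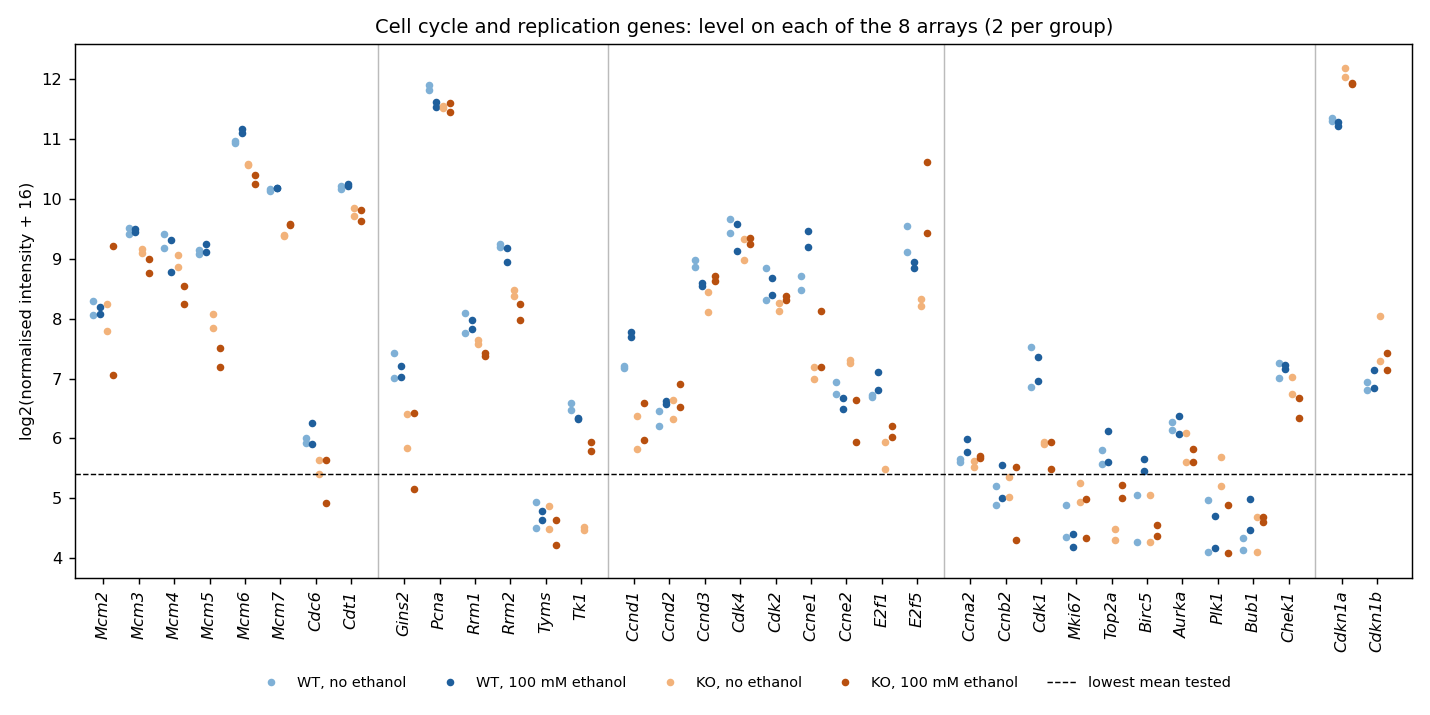
Level of each of the 35 measured genes, as log2(normalised intensity + 16), on each array (points, 2 per group), in the order licensing, fork and nucleotide supply, G1/S, S/G2 and mitotic, and CDK inhibitors. The dashed line marks 5.40, the lowest mean that was tested, and most mitotic genes lie near or under it.

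Replication genes were lower more often than higher in knockout hepatocytes, and the CDK inhibitor Cdkn1a was higher. Without ethanol, limma called 14 of the 28 tested genes lower in KO and 2 higher (adjusted p under 0.05), beside 16.9% lower and 15.3% higher among all 19814 tested probe sets. These shares were larger among brighter probe sets. In the top 30% of probe sets 26.1% were lower and 22.1% higher, and 10 of the genes were lower and 2 higher. These 10 and 2 are out of fewer than 28 genes, since Cdc6, Tk1, E2f1 and others fell below that cut. The median log2 difference was -0.39 over the 28 genes and -0.04 over all tested probe sets. With ethanol, again 14 were lower and 2 higher, beside 15.1% and 14%, with medians of -0.51 and -0.05. The 2 comparisons use different arrays but share the estimate of spread of each probe set, so they are not independent. Called lower in both were 10 genes, that is 10 of 14 in each, namely Mcm3, Mcm5, Mcm6, Mcm7, Cdt1, Rrm2, Ccnd1, Ccne1, E2f1 and Cdk1, while 8.44% of all tested probe sets were lower in both. The count of 16 called genes fell to 10 without any one of the 4 untreated arrays, and with ethanol to 10 without either WT array and to 5 when ethanol WT B and ethanol KO B were taken as untreated. In these cultures fewer cells in cycle and less of an RNA per cell cannot be told apart.

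Dividing the bioC by the bioB spike-in signal split the arrays into groups of 5 and 3, which no label names as a batch. Within the 5-array group the median difference of the 28 genes was -0.44 without ethanol (2 KO arrays against 1 WT), and with ethanol it was -0.51 and -0.61 in the groups of 5 and 3 (1 array against 1 in each). These are the arrays of the main comparison, so the values are a description with no test. The 3-array group holds no untreated KO array.

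**Figure D3:**
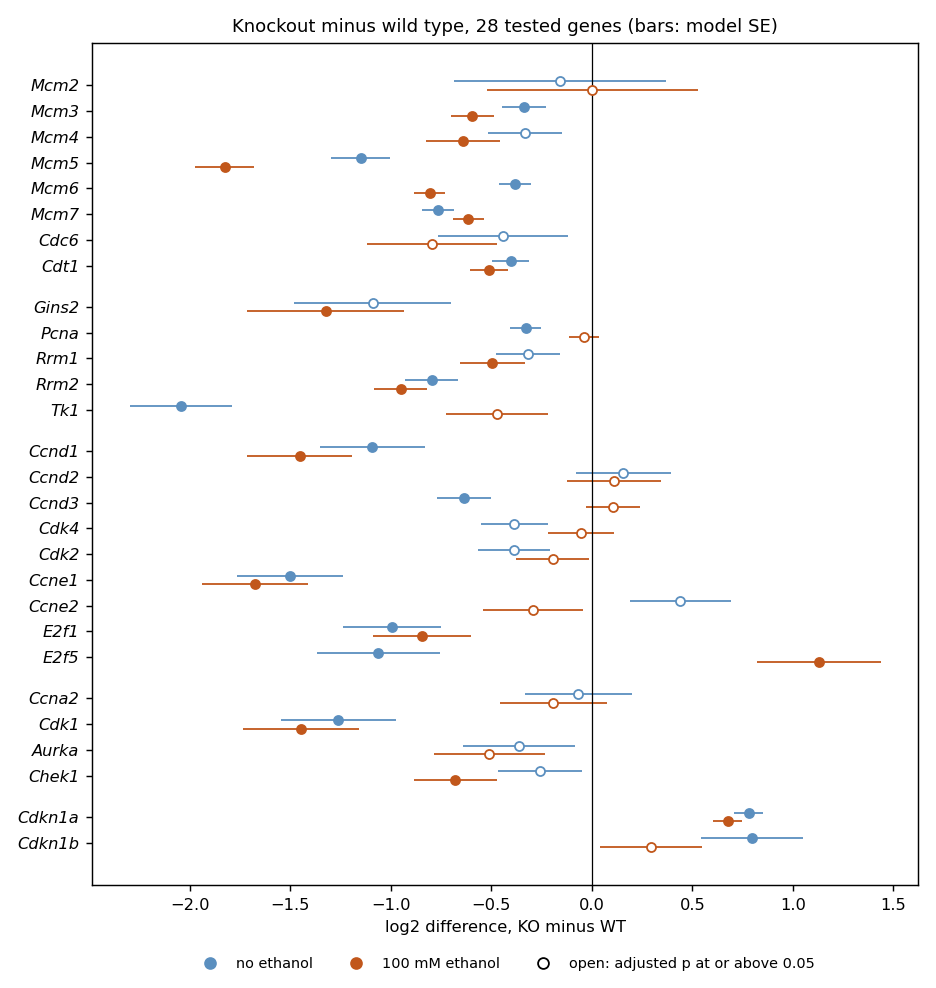
Log2 difference KO minus WT, with the model SE, of the 28 tested genes without ethanol (blue) and with 100 mM ethanol (orange), filled where the adjusted p is under 0.05. Most licensing genes lie to the left under both conditions, Cdkn1a lies at 0.78 and 0.68, and E2f5 changes side.

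All 8 licensing genes were tested. Lower in untreated KO were 5 (Mcm3, Mcm5, Mcm6, Mcm7 and Cdt1) and none was higher. With ethanol these 5 and Mcm4 were lower. Over all tested probe sets 16.9% were lower and 15.3% higher without ethanol, and 15.1% and 14% with it. Those shares are also the background for the counts of the other roles below. The median log2 difference of the 8 was -0.39 without and -0.63 with ethanol. Their summed intensity, mostly that of Mcm6, Cdt1 and Mcm7, was 6346 to 6819 on the 4 WT arrays and 4134 to 4646 on the 4 KO arrays. The sums of the genotypes thus did not overlap. The share of all probe sets without such overlap was not computed. This and the like statements for single genes below are therefore descriptions of the arrays, and not traits particular to these genes.

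Mcm5, a helicase subunit, differed most of the tested licensing genes. Its intensity was 549 and 524 in untreated WT and 255 and 213 in untreated KO. With ethanol it was 537 and 591 in WT and 130 and 167 in KO. Every KO array was below every WT array, and the ethanol KO arrays were lowest. It was 2.22-fold lower in KO without ethanol (log2 -1.15 ± 0.15 SE, limma adjusted p = 0.00039) and 3.55-fold lower with it (-1.83 ± 0.15, adjusted p = 2.9e-05).

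Mcm7, which sits in the same ring, read 1104 and 1128 in untreated WT and 646 and 654 in untreated KO. With ethanol it read 1151 and 1143 against 738 and 750. The arrays of a group were close together and the genotypes stood apart by -0.76 ± 0.08 (adjusted p = 0.00012) and -0.61 ± 0.08 (adjusted p = 0.00047). Mcm6 was 1992 and 1948 against 1504 and 1512 without ethanol, and 2166 and 2273 against 1194 and 1331 with it. Its difference was -0.38 ± 0.08 (adjusted p = 0.0051) and -0.81 ± 0.08 (adjusted p = 8.8e-05), and no KO array reached a WT array.

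Mcm3 was 664 and 718 in untreated WT and 556 and 529 in untreated KO, a difference of -0.34 ± 0.11 (limma adjusted p = 0.038). With ethanol it was 708 and 685 against 419 and 494, or -0.60 ± 0.11 (adjusted p = 0.003). Cdt1, the loading factor that geminin restrains, read 1129 and 1173 against 825 and 908 without ethanol and 1197 and 1174 against 774 and 882 with it. Those values gave -0.41 ± 0.09 (adjusted p = 0.0092) and -0.51 ± 0.09 (adjusted p = 0.0032). On the brightest probe set of either gene the genotypes did not overlap. With ethanol the second Cdt1 probe set read 480 and 465 in WT against 489 and 507 in KO. A further Mcm3 probe set then read 141 and 154 in WT against 150 and 197 in KO. The Mcm3 call without ethanol was lost under 9 of 22 alternative settings.

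Mcm4 was 561 and 664 in untreated WT and 448 and 517 in untreated KO, which was not called (-0.33 ± 0.19, adjusted p = 0.2). Ethanol WT B stood at 617 and ethanol WT A at 422, with 288 and 359 in ethanol KO, a called difference of -0.64 ± 0.19 (adjusted p = 0.028) that was lost under 7 of 23 alternatives. Cdc6, the ATPase that recruits Mcm2 to Mcm7, was near the lower edge of tested levels at 14.3 to 60.4, with every KO array below every WT array. Its differences of -0.44 ± 0.32 and -0.80 ± 0.32 were not called (adjusted p = 0.34 and 0.096).

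Mcm2 was called in neither comparison on the probe set chosen, which read 579 on ethanol KO A and 117 on ethanol KO B and 206 to 299 on the other 6 arrays. The spread of this probe set rests on those ethanol KO arrays. Its second probe set was nearly as bright by log2 mean (8.09 against 8.12) and brighter by the mean deposited intensity (273 against 255). That one read 373 and 345 in untreated WT and 196 and 215 in untreated KO, or -0.76 with an adjusted p of 0.0057, and -0.44 with ethanol (adjusted p = 0.07).

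Fork and nucleotide supply genes gave 3 lower of 5 tested in each condition and none higher. Rrm2, the small subunit of ribonucleotide reductase, which makes deoxyribonucleotides, was 590 and 571 in untreated WT and 316 and 339 in untreated KO. With ethanol it read 565 and 475 against 236 and 286. On this probe set both KO pairs lay below both WT pairs, by -0.80 ± 0.13 (limma adjusted p = 0.0016) and -0.95 ± 0.13 (adjusted p = 0.00071). Rrm1, the large subunit, was 201 and 257 against 184 and 175 (-0.32 ± 0.16, adjusted p = 0.16), and 210 and 237 against 151 and 156 with ethanol (-0.49 ± 0.16, adjusted p = 0.043). That call was lost under 16 of 23 alternatives.

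Tk1, the S phase thymidine kinase, had the largest log2 difference of the set in untreated cells. Intensities were 73.2 and 80.8 in WT and 6.13 and 6.91 in KO, with the latter below the offset of 16. The log2 difference was -2.05 ± 0.26 (adjusted p = 0.00033), a size that depends on the offset. With ethanol Tk1 read 65.0 and 64.3 in WT and 45.1 and 39.4 in KO, which was not called (-0.47 ± 0.26, adjusted p = 0.2).

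Gins2, a subunit of the complex that activates the helicase, read 113 and 156 in untreated WT and 41.6 and 68.9 in untreated KO (-1.09 ± 0.39, adjusted p = 0.058). With ethanol it was 132 and 114 against 19.7 and 70.2, a called difference of -1.32 ± 0.39 (adjusted p = 0.03), with ethanol KO A lowest, and the call was lost under 9 of 22 alternatives. Pcna, the sliding clamp of the polymerases, was 3583 and 3816 in untreated WT against 2908 and 2972 in untreated KO (-0.33 ± 0.08, limma adjusted p = 0.0091). It did not separate the genotypes with ethanol, at 2933 and 3109 in WT and 3096 and 2787 in KO (-0.04 ± 0.08, adjusted p = 0.74). Tyms, thymidylate synthase, was dim at 2.64 to 14.6.

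Among 9 G1 and G1/S genes, 5 were lower in untreated KO (Ccnd1, Ccnd3, Ccne1, E2f1 and E2f5) and none higher. With ethanol 3 were lower (Ccnd1, Ccne1 and E2f1) and E2f5 was higher. Ccne1, cyclin E1, which drives entry into S phase with Cdk2, read 339 and 405 in untreated WT and 111 and 131 in untreated KO. In ethanol it was 572 and 690 in WT against 130 and 263 in KO. Each WT array exceeded each KO array, and the differences were -1.50 ± 0.26 (limma adjusted p = 0.0022) and -1.68 ± 0.26 (adjusted p = 0.0014).

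Ccnd1, cyclin D1, the mitogen-responsive cyclin of G1, was 132 and 128 in untreated WT and 66.9 and 40.6 in untreated KO. With ethanol it was 204 and 192 against 80.9 and 46.9. On this probe set the genotypes did not overlap, with -1.09 ± 0.26 (adjusted p = 0.011) and -1.45 ± 0.26 (adjusted p = 0.003). A further tested Ccnd1 probe set did overlap without ethanol, at 45.9 and 56.0 in WT against 51.8 and 35.2 in KO. With ethanol it read 69.5 and 68.7 against 6.29 and 24.2. The remaining tested probe set was lower on every KO array (22.8 to 49.1) than on any WT array (83.1 to 147). E2f1, an activating E2F, read 87.1 and 90.3 against 45.2 and 29.2 without ethanol and 96.2 and 123 against 58.2 and 49.1 with it, or -0.99 ± 0.25 (adjusted p = 0.012) and -0.84 ± 0.25 (adjusted p = 0.028). The E2f1 call with ethanol was lost under 12 of 22 alternatives.

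Ccnd3, a further D cyclin, was 488 and 448 in untreated WT and 333 and 261 in untreated KO (-0.64 ± 0.13, limma adjusted p = 0.0055). With ethanol it stood at 357 and 370 in WT and 406 and 378 in KO (0.11 ± 0.13, adjusted p = 0.6). The interaction, the ethanol effect in KO minus that in WT, was 0.74 ± 0.19 with an adjusted p of 0.054, just outside the threshold. Ccnd2, Cdk4, Cdk2 and Ccne2 were called in neither comparison, with log2 differences between -0.39 and 0.44.

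E2f5, an E2F that binds p130 in quiescent cells, gave opposite answers by condition and by probe set. On the brightest probe set it was 540 and 731 in untreated WT and 304 and 282 in untreated KO (-1.06 ± 0.31, adjusted p = 0.025). With ethanol it read 477 and 444 in WT, 1560 on KO A and 674 on KO B (1.13 ± 0.31, adjusted p = 0.022). Its 2 other tested probe sets were higher in untreated KO, by 0.50 and 0.94 (adjusted p = 0.034 and 0.0012), and differed by 0.10 and 0.80 with ethanol (adjusted p = 0.69 and 0.0035). The counts of genes use its brightest probe set, whose direction without ethanol the others do not share.

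S, G2 and mitotic genes were mostly dim. Of 11 listed, 10 were measured and 4 tested, and the summed intensity of the 10 was 429 to 499 on WT arrays and 218 to 329 on KO arrays. Cdk1 made a large part of that gap, and without it the sums of the genotypes overlapped. Cdk1, the kinase that starts mitosis, was the one member lower in untreated KO, at 169 and 99.6 in WT against 44.3 and 45.5. With ethanol it read 147 and 109 against 45.2 and 28.8. No KO array reached a WT array, and the differences were -1.26 ± 0.29 (limma adjusted p = 0.0084) and -1.45 ± 0.29 (adjusted p = 0.0049). Chek1, the S and G2 checkpoint kinase, was 113 and 138 against 91.3 and 114 (-0.26 ± 0.21, adjusted p = 0.38), and 134 and 126 against 65.5 and 86.3 with ethanol (-0.68 ± 0.21, adjusted p = 0.035), a call lost under 13 of 22 alternatives.

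Ccna2, cyclin A2, stayed between 29.7 and 47.8 on all arrays, and Aurka, a spindle pole kinase, between 32.4 and 66.9. Neither was called, with adjusted p of 0.88 and 0.36 without ethanol and 0.63 and 0.2 with it. The dim members were Ccnb2 (3.83 to 31.2), Mki67 (2.14 to 22.3), Top2a (3.68 to 53.9), Birc5 (3.21 to 34.3), Plk1 (0.924 to 35.6) and Bub1 (1.2 to 15.6). Each had readings under the offset of 16 and none was tested at the main filter. Top2a, the topoisomerase of S phase and mitosis, was just below the lower edge of the tested levels, with a log2 mean of 5.27 against 5.40. It read 31.7 and 40.0 in untreated WT against 3.68 and 6.43 in untreated KO. With no filter on dim probe sets its adjusted p was 0.029 there and 0.22 with ethanol.

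Both CDK inhibitors were higher in untreated KO. Cdkn1a, the p53-responsive inhibitor p21, read 2594 and 2511 in untreated WT and 4172 and 4627 in untreated KO. With ethanol it was 2354 and 2462 against 3835 and 3878. All 4 KO arrays exceeded all 4 WT arrays, by 0.78 ± 0.07 (limma adjusted p = 6.6e-05) and 0.68 ± 0.07 (adjusted p = 0.00015). Cdkn1b (p27) was 96.5 and 107 against 249 on KO A and 141 on KO B (0.80 ± 0.25, adjusted p = 0.038), a call lost under 10 of 22 alternatives, and 125 and 99.1 against 126 and 156 with ethanol (0.29 ± 0.25, adjusted p = 0.43).

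Reading every tested probe set in place of 1 per gene gave 55 probe sets of the 28 genes. Of these 26 were lower and 5 higher in untreated KO, beside 16.9% and 15.3% of all tested probe sets. With ethanol 24 were lower and 4 higher, beside 15.1% and 14%. These counts take many genes more than once. Of the 18 genes with several tested probe sets, E2f5 was the one called both ways without ethanol, and none was with ethanol. One other probe set each of Mcm5 (-1.12 and -0.98), Rrm2 (-1.24 and -0.80), Ccne1 (-1.39 and -1.05) and Cdkn1a (1.39 and 1.03) was called in the same direction in both conditions. A further Rrm2 probe set was lower without ethanol (-0.93, adjusted p = 0.0054) but stood at -0.07 with it (adjusted p = 0.82). Of Mcm3, a further probe set was lower without ethanol (-0.50, at the edge of the threshold) and stood at 0.20 with it (adjusted p = 0.42). For Cdt1 the second probe set was lower without ethanol (-0.70, adjusted p = 0.00085) but stood at 0.07 with it (adjusted p = 0.64). For Rrm1 the second probe set had the opposite sign, at 0.19 and 0.51, and was not called (adjusted p = 0.47 and 0.068).

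**Figure D4:**
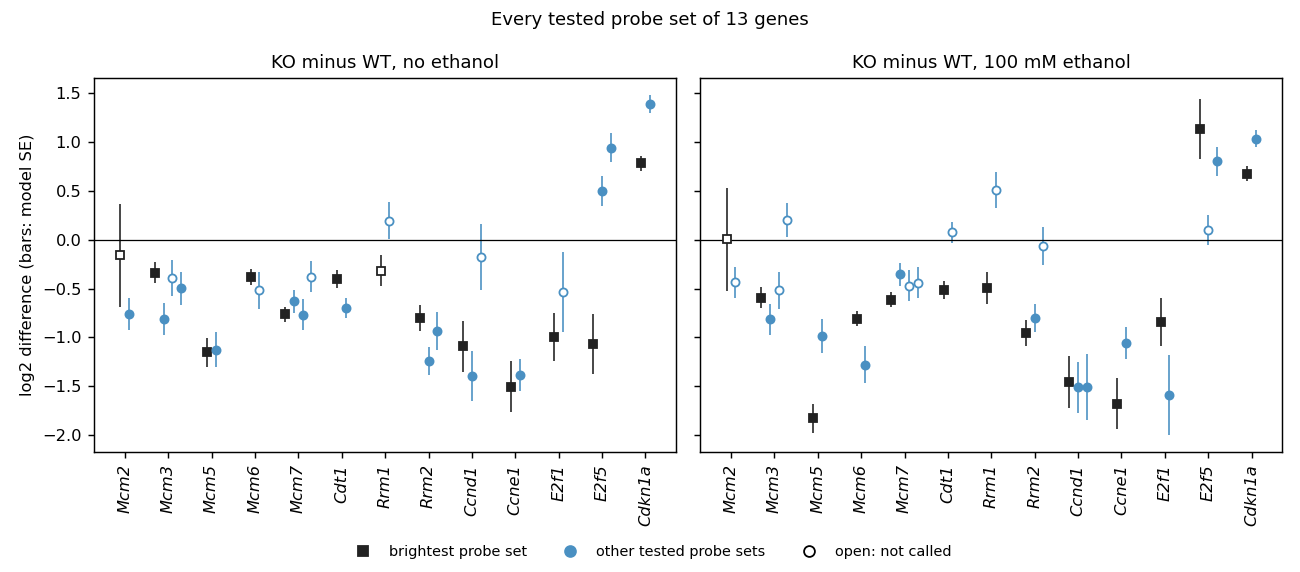
Log2 difference KO minus WT with model SE for every tested probe set of 13 genes, without ethanol (left) and with it (right), as black squares for the brightest probe set and blue circles for others, filled where called. The probe sets of Mcm5, Ccne1 and Cdkn1a lie on one side of 0 in both panels, while those of E2f5 lie on both sides without ethanol.

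Calls with ethanol were few, and in neither genotype more frequent among these genes than among all tested probe sets. In WT none of the 28 was called by limma. An unadjusted p under 0.05 was found for 3 (Pcna, Ccnd3 and Ccne1), beside 3732 of all 19814 tested probe sets. All tested probe sets gave 3.91% lower and 1.67% higher, and the medians were -0.01 over the genes and 0.01 over all. Pcna was 3583 and 3816 without ethanol and 2933 and 3109 with it (-0.29 ± 0.08, adjusted p = 0.06). Ccne1 was 339 and 405 without and 572 and 690 with ethanol (0.74 ± 0.26, adjusted p = 0.16), and in both genes the arrays did not overlap.

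In KO ethanol lowered 3 and raised 2 of the 28, beside 10.8% lower and 11.4% higher of all tested probe sets. Lower were Mcm5 (255 and 213 to 130 and 167, -0.61 ± 0.15, adjusted p = 0.018), Mcm6 (-0.25 ± 0.08, adjusted p = 0.045) and Ccne2, the second cyclin E (143 and 138 to 45.7 and 83.3, -0.999 ± 0.25, adjusted p = 0.02). On the second Mcm5 probe set the difference was -0.07 (adjusted p = 0.81), and on that of Mcm6 -0.46 (adjusted p = 0.11). The Mcm6 call was lost under 15 of 22 alternatives. Higher were Tk1 (6.13 and 6.91 to 45.1 and 39.4, 1.37 ± 0.26, adjusted p = 0.0057) and the brightest E2f5 probe set (1.76 ± 0.31, adjusted p = 0.0043). Without untreated KO A the count of 5 fell to 2, without untreated KO B to 3, and without ethanol KO B it rose to 10. The other E2f5 probe sets went the other way, at -0.39 (adjusted p = 0.1) and -0.64 (adjusted p = 0.015). By limma, 11 of the 28 genes had an unadjusted p under 0.05 in KO, beside 7189 of all 19814 tested probe sets.

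The interaction was called for 2 of 28, Tk1 (1.57 ± 0.36, limma adjusted p = 0.038) and E2f5 (2.19 ± 0.43, adjusted p = 0.022), both higher, beside 3.57% higher and 1.78% lower of all tested probe sets. No interaction was called when any 1 of the 6 arrays other than the ethanol KO pair was left out, and 8 were without ethanol KO B. The other E2f5 probe sets gave -0.40 and -0.14 and were not called. Among licensing genes the interaction was -0.68 ± 0.21 in Mcm5 (adjusted p = 0.097) and -0.43 ± 0.11 in Mcm6 (adjusted p = 0.059), short of the threshold. The second Mcm5 probe set did not share this direction. With ethanol it went from 132 and 106 to 125 and 101 in KO, and from 254 and 303 to 241 and 235 in WT. The second Mcm6 probe set fell in KO and rose in WT, as the brightest did. A second probe set of Cdt1 had a called interaction of 0.78 (adjusted p = 0.018), whereas its brightest had -0.11 (adjusted p = 0.67).

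**Figure D5:**
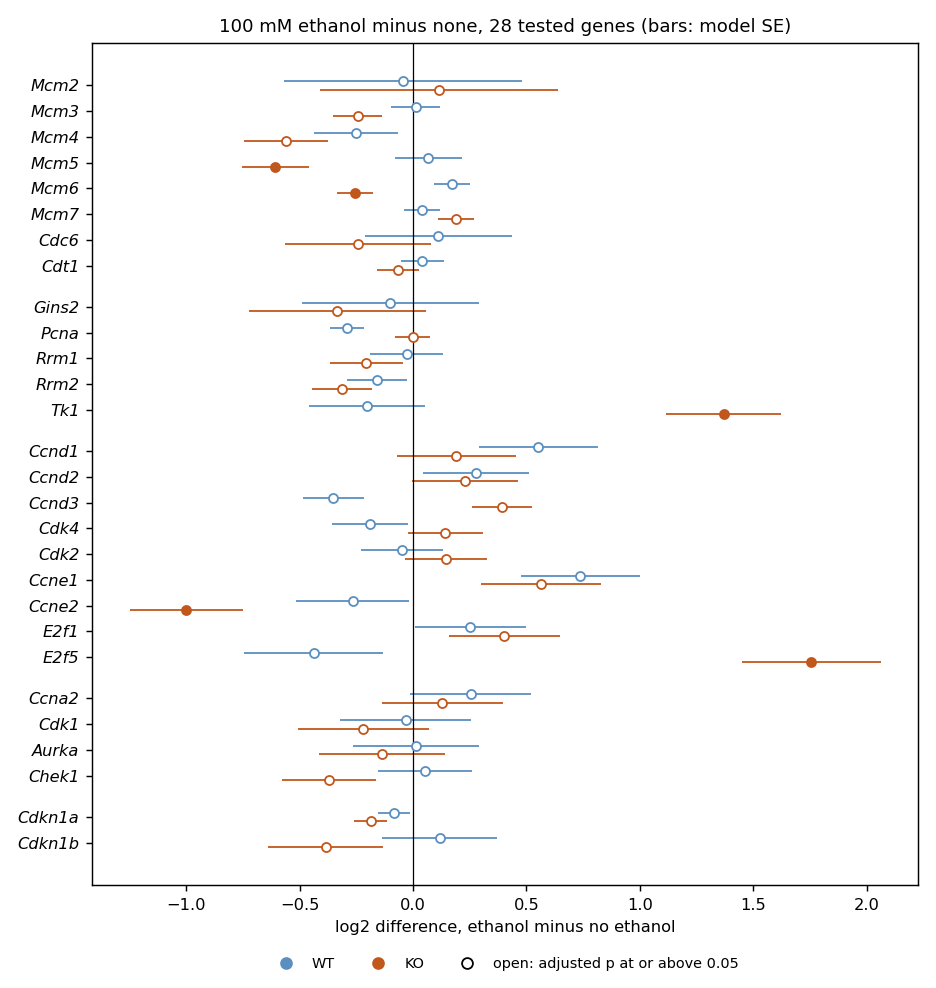
Log2 difference, 100 mM ethanol minus none, with the model SE, of the 28 tested genes in WT (blue) and KO (orange), filled where the adjusted p is under 0.05. No WT point is filled, and in KO Mcm5, Mcm6 and Ccne2 lie left and Tk1 and E2f5 right.

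Other licensing and fork genes, a list of 51 with 46 tested, had 16 lower and 3 higher in untreated KO and 22 lower and 1 higher with ethanol. Its medians were -0.46 and -0.45 beside -0.04 and -0.05 over all tested probe sets. The background for its counts and for those of the other lists was 16.9% lower and 15.3% higher of all tested probe sets without ethanol, and 15.1% and 14% with it. Rpa1, which coats single-stranded DNA, read 1492 and 1591 in untreated WT against 727 and 662 in untreated KO (-1.13, limma adjusted p = 6.7e-05), and differed by -0.94 with ethanol (adjusted p = 2e-04). Gmnn, geminin, the inhibitor of Cdt1, was also lower, by -0.91 and -1.15 (adjusted p = 0.00057 and 0.00017). Dnmt1, the maintenance methyltransferase, differed by -0.71 without ethanol (adjusted p = 0.00052) and the mismatch repair gene Msh6 by -1.15 with it (adjusted p = 0.00048). With ethanol in WT 1 was lower and 0 higher (background 3.91% and 1.67%), and in KO 6 were lower and 2 higher (background 10.8% and 11.4%), among them Orc4, an origin recognition subunit, lower in both (-0.48 and -0.75, adjusted p = 0.038 and 0.002).

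Other mitotic genes, 46 listed and 24 tested, had 9 lower and 3 higher in untreated KO and 8 lower and 2 higher with ethanol. Smc4, a condensin subunit, was lower without ethanol (-1.50, adjusted p = 5e-04), as was Bub3 of the spindle checkpoint (-0.72, adjusted p = 0.001), while Ncapd2, another condensin subunit, was higher by 1.39 and 1.47 (adjusted p = 4.1e-05 and 2.9e-05). Ethanol raised 1 of the 24 in each genotype and lowered none (background 1.67% higher and 3.91% lower in WT, 11.4% and 10.8% in KO). Other G1, RB and E2F genes gave 4 lower and 3 higher of 20 without ethanol, beside 16.9% and 15.3% of all tested probe sets. With ethanol 3 were lower and 1 higher, beside 15.1% and 14%. The ubiquitin-conjugating gene Cdc34 was lower in both (-1.09 and -0.39, adjusted p = 2.6e-05 and 0.0079). Of 3 other CDK inhibitors tested none was called in either comparison by limma, with 2 at an unadjusted p under 0.05 without ethanol and 0 with it.

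Genes known as p53 targets went both ways: untreated KO had 4 higher and 6 lower of 17 tested, and ethanol KO 2 higher and 4 lower. Btg2, an antiproliferative gene, was higher (1.42 and 1.36, limma adjusted p = 9e-06 and 1.1e-05), while Phlda3 was lower (-1.41 and -1.21, adjusted p = 2e-04 and 0.00056). Of 17 tested genes of mitogen and priming signals, 7 were higher in each condition, with 3 lower without ethanol and 2 with it. The list mixes growth signals with others, such as TGF-beta genes and Socs3, so these counts give no direction of effect on growth. Socs3 was itself higher without ethanol (1.57, limma adjusted p = 7.7e-05). Fos was higher by 1.59 and 1.55 (adjusted p = 5e-06 and 6e-06) and Il6, the priming cytokine, by 3.54 and 2.82 (adjusted p = 7.6e-05 and 3e-04).

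Some markers of the cultured cells differed with genotype too. The background for these counts was 16.9% lower and 15.3% higher of all tested probe sets without ethanol, and 15.1% and 14% with it. Of 9 hepatocyte markers, all tested, 6 were lower and 2 higher in untreated KO and 3 lower and 0 higher with ethanol. Their summed intensity was 74292 to 78834 on WT arrays and 69947 to 73162 on KO arrays, and Hnf4a, the hepatocyte transcription factor, read 1146 and 1199 in untreated WT and 467 and 430 in untreated KO. Summed macrophage markers, 14 of 15 tested, were 5300 to 7469 in WT and 6337 to 9116 in KO, mostly Cd14 and Cd68, but by count 1 was higher (Cd68) and 3 were lower (Marco, Csf1r and Lyz2) in untreated KO, and 1 was higher (Cd68) and 1 lower (Marco) with ethanol. Endothelial markers (10 of 12 tested) summed to 783 to 949 in WT and 856 to 945 in KO, and stellate and fibroblast markers (6 of 12) to 311 to 494 and 529 to 859. Cholangiocyte markers (2 of 5) summed to 318 to 461 and 769 to 1122, mostly Sox9, with Cftr at 1.1 to 6.05. Lymphocyte markers (0 of 9 tested) summed to 59.8 to 136 in WT and 72.4 to 108 in KO, and neutrophil markers (2 of 6) to 178 to 243 and 222 to 297. In each condition 1 endothelial, 1 stellate and 1 cholangiocyte marker was called higher and none lower. The endothelial marker was Cdh5 without and Pecam1 with ethanol, while the others were Dcn and Sox9 in both. By limma no tested neutrophil marker was called (0 at an unadjusted p under 0.05). Their part in the lower replication genes was not tested.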

How the data were processed

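Per the labels' protocols, total RNA from the hepatocytes was column-purified and turned into biotinylated cRNA, hybridised singly to 8 arrays. The deposited values are linear signal intensities for 45101 probe sets, and how the authors summarised probes is not given in the sources used here. On the ethanol WT B array 5410 values were unusable (zeros or impossible), and the probe sets affected were left out, leaving 39627 complete ones. Of the 87 probe sets of these genes 86 were complete, and the other is a dim one of Mcm5.

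Intensities were quantile normalised, 16 was added and log2 taken. The brighter 50% (19814 probe sets) were fitted with limma 3.58.1 in R 4.3.3 over all 8 arrays and 4 group means, with an intensity trend. There were 4 residual and 5.43 prior degrees of freedom. P-values were adjusted over all tested probe sets of each of 5 contrasts by the Benjamini-Hochberg method, and called under 0.05. The fit was tested on simulated data. Replicate letters were not taken to pair samples: deviations of A arrays correlated above 0.1 in 3 of 6 pairs (0.204 to 0.302), all within the 3-array spike-in ratio group, and at 0.0218 to 0.0308 in the others. All 36 genes were to be named, and of other lists up to 3 genes by contrast with the smallest adjusted p. Genes were named from the platform table. The genes, lists and tests were chosen with earlier results of these data known. Alternatives varied scaling, offset, filter, variance prior, probe sets, arrays and treatment text.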

Additional observations from a re-analysis of the deposited data

Results flagged for a closer look

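The ethanol effect differed between genotypes on the brightest probe set of 2 of the genes. Tk1 had an interaction of 1.57 on the log2 scale. In WT its intensity was 73.2 and 80.8 without and 65.0 and 64.3 with ethanol. In KO it went from 6.13 and 6.91 to 45.1 and 39.4, so the value rests on 2 readings below the offset of 16. E2f5 had an interaction of 2.19 on its brightest probe set, where ethanol KO A read 1560 and ethanol KO B 674. Its other tested probe sets gave -0.40 and -0.14 and were not called. The Tk1 call was lost under 11 of 20 alternatives and the E2f5 call under 8 of 21.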

How the results depend on the processing

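With 2 arrays per group, precision is limited by their number, and dim genes near the offset have only a rough size. No call on the brightest probe set of a member changed sign under any alternative run, while other probe sets and the other lists were not rerun. Calls that held under all 22 alternatives without ethanol were those of Mcm5, Mcm6, Mcm7, Rrm2, Ccne1 and Cdkn1a, and that of Tk1 under all 21. With ethanol Mcm5, Mcm6, Rrm2 and Cdkn1a held under all 23. Least stable were Cdkn1b (lost under 10 of 22) and Mcm3 (9 of 22) without ethanol, and Rrm1 (16 of 23), Chek1 (13 of 22), E2f1 (12 of 22), Gins2 (9 of 22) and Mcm4 (7 of 23) with it. The Mcm6 ethanol call in KO was lost under 15 of 22. The count of genes called, 16 without ethanol, ranged from 10 to 17 leaving out 1 array, and was 10 without either untreated KO array or either untreated WT array. With ethanol, 16 became 5 when the B arrays given ethanol were counted as untreated, 12 without the 3 dim KO arrays, and 10 to 17 leaving out 1 array, with 10 without either ethanol WT array. For ethanol in WT, 0 became 1 with the top 30% of probe sets, with incomplete probe sets kept, with the spike-in ratio group as a term, within the 5-array group, or without the B ethanol arrays, and 2 with only the compared groups or without the 3 dim KO arrays. It was 0 to 2 leaving out 1 array, reaching 2 without ethanol KO A or ethanol KO B. For ethanol in KO, 5 became 1 with only the compared groups, 3 within the 5-array group, 10 without the B ethanol arrays and 0 with them counted as untreated. It was 2 to 10 leaving out 1 array: 2 and 3 when the untreated KO arrays A and B were left out in turn, and 10 without ethanol KO B. The interaction count of 2 became 1 with an offset of 64, no filter, no variance trend or the 5-array group alone, 7 without the B ethanol arrays and 0 with them counted as untreated. Leaving out 1 array gave 0 to 8: 8 without ethanol KO B, 1 without ethanol KO A and 0 without any one of the other 6. With the replicate letter as a replicate block the 5 counts were 17, 16, 0, 7 and 3. Trimmed-mean scaling moved the median of all probe sets by 0.111 in KO minus WT with ethanol and left 13 genes called there. With incomplete probe sets kept, 7.91% of probe sets were lower and 14% higher in that comparison, and 12 genes were called, 10 of them lower. The causes were not tested.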
